A study of Mus musculus with 10 samples.

Results

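The 10 genes examined here encode proteins known to bind desmin or to take part in fastening its filaments to other structures of the cell. They are the plakins Plec, Dst, Macf1 and Dsp, the desmosomal and junctional proteins Jup and Cdh2, the lipid phosphatase Mtm1, and the costamere proteins Vcl, Tln1 and Tln2. For short they are called anchor genes below, which says nothing about their part in this muscle. They were grouped by their known function, but with earlier results of these data known. They are 10 of the 54232 genes in the deposited table. The RNA came from the gastrocnemius muscle, a calf muscle, of 5 homozygous desmin knock-out mice (genotype Des -/-) and 5 wild-type littermates (genotype Des wt/wt) of the same strain, all 3 months old. The methods of the study name the gastrocnemius, as the labels do, but a legend and the discussion also name the neighbouring plantaris. The knock-out is carried in every cell of the body and from the start of life, in a single mouse line. The methods of the study speak of RNA pooled from 5 muscles per genotype, but the table lists every mouse on its own, and each of the 10 mice was taken as 1 replicate. The values are rlog values (regularized logarithms to base 2), which are drawn towards the mean of each gene, so that differences between genotypes are understated, most of all for weakly expressed genes.

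Des itself had values of 11.76 to 11.89 in the knock-out mice and of 16.10 to 17.74 in the wild-type mice, without overlap, as the labels state. Wild-type mouse 3 stood apart from the other mice: its mean correlation with its own genotype was 0.982, against 0.989 to 0.997 elsewhere, and the sum of its values on the linear scale was 1.48 times the median mouse. The differences of the 9 tested anchor genes and of the pairs formed with them are given with and without this mouse. Markers of muscle fibers (7 of 7 above the expression limit, none of them at 0) were abundant in every mouse. In whole muscle, fewer cells of a type and less RNA per cell cannot be told apart.

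Desmin forms the intermediate filaments that surround the Z-discs of a muscle fiber and run to its membrane, nuclei and mitochondria. Plakins are giant cytolinkers with binding sites for intermediate filaments, actin or microtubules, and plectin is the plakin best known for anchoring desmin in muscle. Costameres are the membrane sites where talin and vinculin join integrins to the Z-discs, and desmin reaches them through plectin. Plakoglobin and desmoplakin hold desmin at the intercalated discs of the heart, and myotubularin, a phosphoinositide phosphatase that is lost in a congenital myopathy, binds desmin directly.

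Of the 10 genes, 9 had a mean rlog value above the limit for testing (log2 of 10) and entered the limma fit over 14289 genes, while Dsp fell under the limit. Of these 9, 1 gene (Macf1) was higher in desmin knock-out muscle at an adjusted p under 0.05 and 0 were lower. At an unadjusted p under 0.05 (limma) the counts were also 1 and 0, and the share of all tested genes at that level was not counted. Over all tested genes, 13.7% passed the test, 7.70% as higher and 5.99% as lower, so that 1 of 9 (11.1%) is close to the background. Means were higher in the knock-out for 6 of the 9 genes and lower for 3. The median difference of the 9 genes was 0.15 on the log2 scale, against -0.0029 over all tested genes, and the median size of the difference regardless of sign was 0.159 against 0.173. For no tested gene of the 9 did the 95% interval of the difference reach a change of 2-fold on the rlog scale, and for 8 of them it included 0. These genes are long, with between 6436 and 41155 bases of exons and a median of 11868 over the 10, against 4232.5 over all tested genes.

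**Figure D1:**
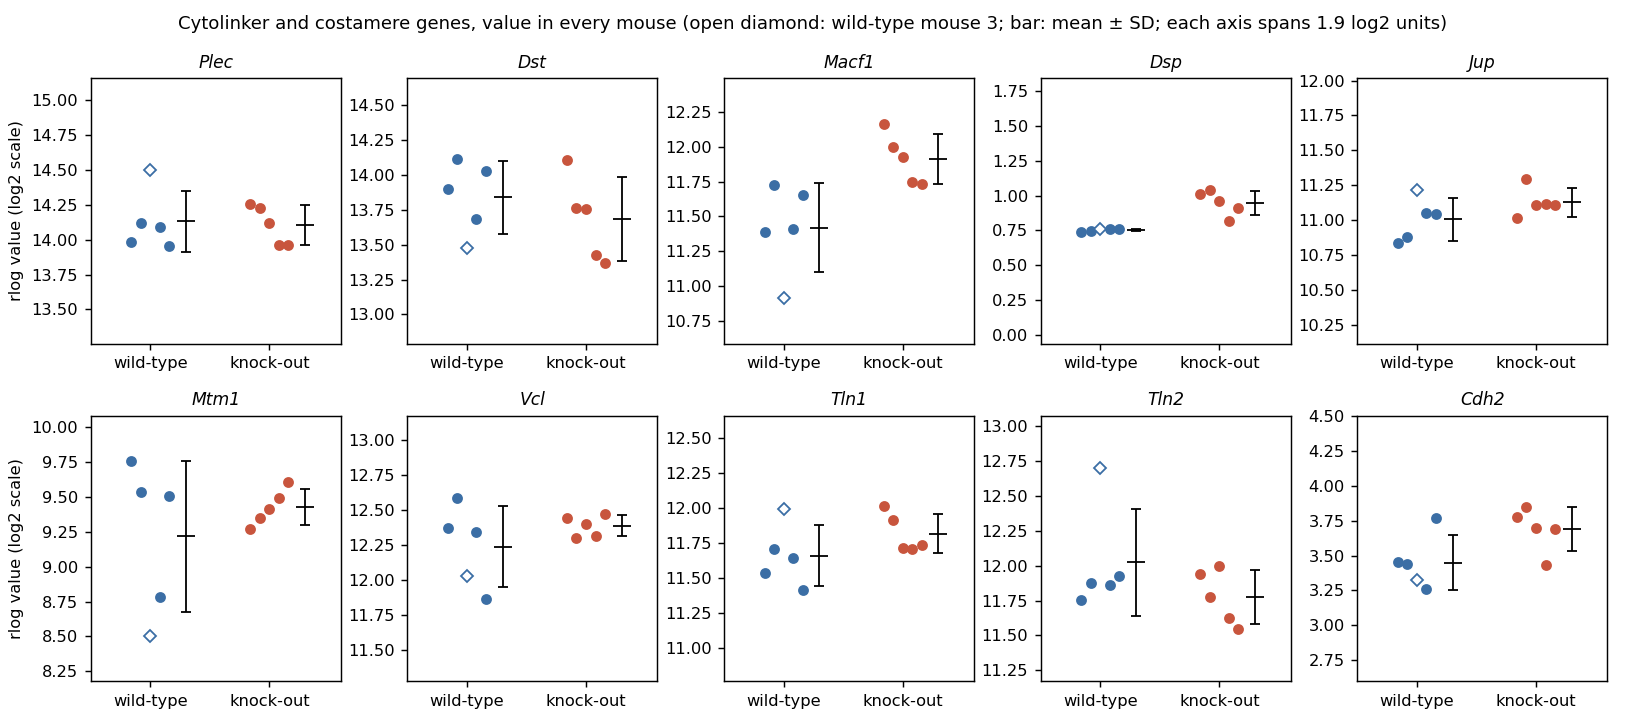
Rlog value (log2 scale) of each of the 10 genes in every mouse, with wild-type mice in blue, knock-out mice in red, wild-type mouse 3 as an open diamond and bars for mean ± SD (n = 5). Macf1 and Dsp show no overlap between the genotypes, and the other 8 genes overlap.

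Of the 7 genes with an entry in the RefSeq promoter table (GRCm38.p6), which gave 10 windows of 250 bases before a gene start, 2 promoters are shown: that of Macf1, the gene that passed the test, and that of Vcl, the only window with a CArG box, the element bound by serum response factor. Both are written from 5′ to 3′ on the strand of the gene. The Macf1 window lies at chr4:123684361-123684610 on the minus strand, and the capitals mark its 3 E-boxes (CANNTG). The Vcl window lies at chr14:20929148-20929397 on the plus strand, and the capitals mark its CArG box.

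Macf1: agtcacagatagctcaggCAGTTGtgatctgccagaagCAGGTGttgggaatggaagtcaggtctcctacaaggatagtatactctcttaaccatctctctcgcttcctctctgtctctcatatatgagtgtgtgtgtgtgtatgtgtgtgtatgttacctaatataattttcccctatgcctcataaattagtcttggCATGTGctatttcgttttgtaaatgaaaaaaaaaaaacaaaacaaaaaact
Vcl: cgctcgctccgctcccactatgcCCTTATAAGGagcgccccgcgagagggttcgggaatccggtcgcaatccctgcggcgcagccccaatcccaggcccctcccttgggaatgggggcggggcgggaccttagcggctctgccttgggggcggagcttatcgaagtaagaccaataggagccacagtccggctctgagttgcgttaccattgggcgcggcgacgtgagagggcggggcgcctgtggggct

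Searched on both strands, a CArG box was present in 1 of the 10 windows and in 1.47% of the 32851 windows in the table. E-boxes, the sites of MyoD-type factors, were present in 7 of the 10 windows and in 66.2% of all windows. GC boxes (GGGCGG) were present in 6 of the 10 windows and in 32.7% of all, with 4 in the window of Vcl and 0 in that of Macf1. Mtm1 and Dst each gave more than 1 window. The Mtm1 windows at chrX:71214756-71215005 and chrX:71214824-71215073 overlap and both hold GC boxes, so that the 10 windows are not separate units. These matches describe the letters of the windows and are no evidence of binding.

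Among the plakins, Macf1 was the gene that differed between the genotypes. Macf1 (ENSMUSG00000028649, GRCm38 chromosome 4, 123349633 to 123684360, minus strand) encodes the microtubule-actin crosslinking factor. Its rlog values were 12.16, 11.99, 11.93, 11.74 and 11.73 in knock-out mice 1 to 5 and 11.39, 11.73, 10.91, 11.41 and 11.65 in wild-type mice 1 to 5. All knock-out values lay above all wild-type values, but the lowest knock-out value (11.7292) and the highest wild-type value (11.7278) nearly touched, and wild-type mouse 3 was far the lowest. The means were 11.91 ± 0.18 (SD, n = 5) in the knock-out and 11.42 ± 0.32 (SD, n = 5) in the wild type. This is a difference of 0.49 (SE 0.14, 95% interval 0.18 to 0.80), or 1.41-fold, with an adjusted p of 0.0385 (limma). Lack of overlap was found for 1 of the 9 tested genes and for 14.4% of all tested genes. Without wild-type mouse 3 the difference was 0.37, with an adjusted p of 0.0266 (limma), and the SD of the wild-type mice was 0.17.

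The call for Macf1 was not stable against the choice of mice: when single mice were left out, the adjusted p (limma) stayed under 0.05 in 4 of 10 fits, and it was 0.101, 0.0937, 0.0784 and 0.0513 without knock-out mouse 1, 2, 3 or 4 and 0.0642 and 0.0672 without wild-type mouse 1 or 4. It was also lost with no expression limit (0.0969), with sample weights (0.0589, difference 0.25) and with Y-linked expression as a covariate (0.0764, difference 0.39).

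Dst (ENSMUSG00000026131, chromosome 1, 33908225 to 34308661, plus strand) encodes dystonin, a plakin with neuronal, epithelial and muscle isoforms that a gene-level value sums. Its values were 14.11, 13.76, 13.76, 13.43 and 13.37 in knock-out mice 1 to 5 and 13.90, 14.11, 13.47, 13.68 and 14.03 in wild-type mice 1 to 5. The genotypes overlapped over nearly their whole range. The means were 13.69 ± 0.30 and 13.84 ± 0.26 (SD, n = 5 each), a difference of -0.15 with a 95% interval of -0.49 to 0.18 and an adjusted p of 0.562 (limma). It was -0.25 without wild-type mouse 3, and between -0.26 and -0.07 with any mouse left out. With sample weights the difference was -0.45 with an adjusted p of 0.0107 (limma).

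Plec (ENSMUSG00000022565, chromosome 15, 76170974 to 76232574, minus strand) encodes plectin. Knock-out mice 1 to 5 had values of 14.26, 14.23, 14.12, 13.96 and 13.96, and wild-type mice 1 to 5 had 13.99, 14.12, 14.50, 14.09 and 13.95. The values were intermingled, with wild-type mouse 3 the highest of all. The means of 14.11 ± 0.14 and 14.13 ± 0.22 (SD, n = 5 each) differed by -0.02 (95% interval -0.28 to 0.23, ratio 0.822 to 1.18), with an adjusted p of 0.915 (limma). It was 0.07 without wild-type mouse 3. The sign of this difference turned under other settings too, and no direction can be given for Plec.

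The difference between 2 genes within a mouse is meant to cancel how that mouse was scaled. Because rlog values are shrunken per gene, it does so only in part, least where 1 gene is near the floor. Between the genotypes, 9 such pairs, chosen with earlier results of these data known, were tested with exact permutation tests. Macf1 minus Dst was -1.95, -1.77, -1.83, -1.69 and -1.64 in knock-out mice 1 to 5 and -2.51, -2.39, -2.56, -2.27 and -2.37 in wild-type mice 1 to 5. The genotypes were clearly apart, and wild-type mouse 3 lay close to the other wild-type mice. Macf1 was thus higher relative to Dst by 0.65 in the knock-out, with means of -1.77 ± 0.12 and -2.42 ± 0.11 (SD, n = 5 each; exact permutation p = 0.00794, the smallest that 5 against 5 mice allow; adjusted over the 9 pairs 0.0357). With any mouse left out this difference was between 0.61 and 0.69, and 0.61 without wild-type mouse 3. With GC content and length trends removed it was 0.63, but the adjusted p of the exact permutation test was then 0.0635. The pair is made of the gene with the largest rise and a gene with a lower mean, so the result is not separate from that for Macf1 alone.

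Plec minus Macf1 was 2.10, 2.23, 2.19, 2.22 and 2.23 in the knock-out mice and 2.60, 2.39, 3.58, 2.68 and 2.30 in the wild-type mice. All knock-out mice lay below all wild-type mice, and wild-type mouse 3 was far above the rest. The means of 2.19 ± 0.06 and 2.71 ± 0.51 (SD, n = 5 each) differed by -0.52 (exact permutation p = 0.00794, adjusted 0.0357), and by -0.30 without wild-type mouse 3. With GC content and length trends removed the difference was -0.32, and the adjusted p of the exact permutation test was 0.0889, so that this call was lost too. Plec minus Dst differed by 0.13 between the genotypes (exact permutation p = 0.548, adjusted 0.617). Without wild-type mouse 3 it differed by 0.31 (adjusted p of the exact permutation test 0.143), and with the GC content and length trends removed also by 0.31. With 4 against 5 mice the smallest exact permutation p is 0.0159, which gives at least 0.0714 after adjustment for 2 such pairs, so that neither pair can pass with a mouse left out unless further pairs pass as well.

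**Figure D2:**
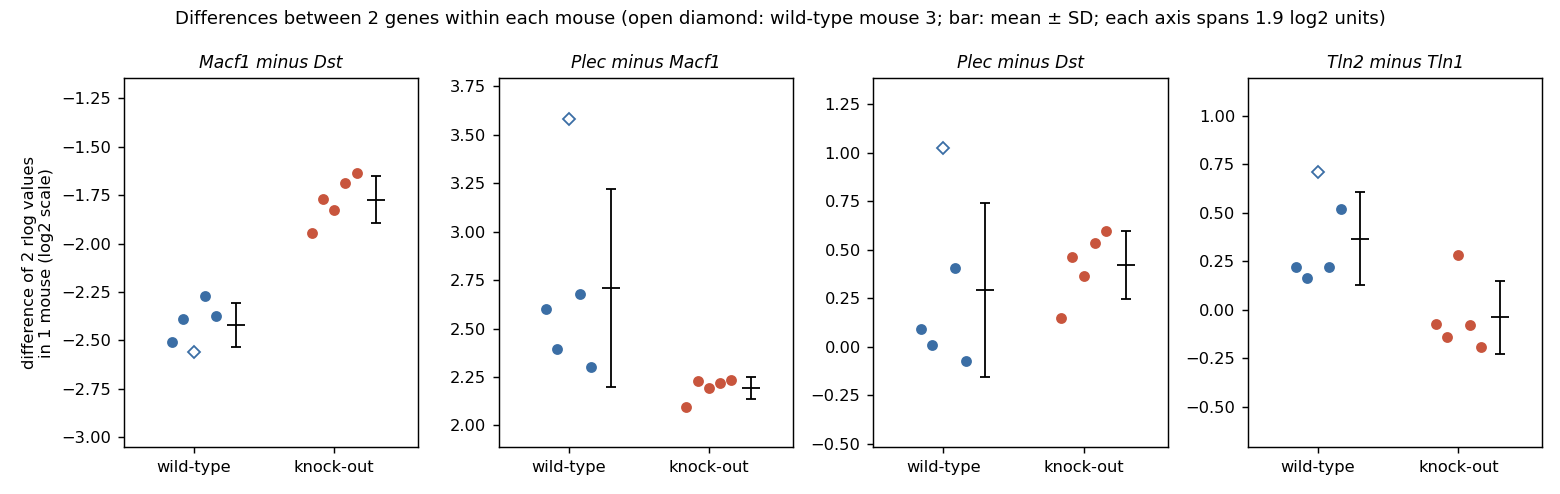
Difference of 2 rlog values within each mouse (log2 scale) for 4 pairs of genes, with wild-type mice in blue, knock-out mice in red, wild-type mouse 3 as an open diamond and bars for mean ± SD (n = 5). Macf1 minus Dst and Plec minus Macf1 do not overlap between genotypes, whereas Plec minus Dst and Tln2 minus Tln1 do.

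Between mice of a genotype, Macf1 and Dst had the highest correlation of the 36 pairs among the 9 tested genes when wild-type mouse 3 was left out. The correlation of their deviations from the genotype means was 0.93 over these 9 mice and 0.91 over all 10, where Plec with Tln1 was higher. These points share their libraries and their scaling, and the value is a description. In the plot of Macf1 against Dst the knock-out mice form a line that lies above that of the wild-type mice.

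**Figure D3:**
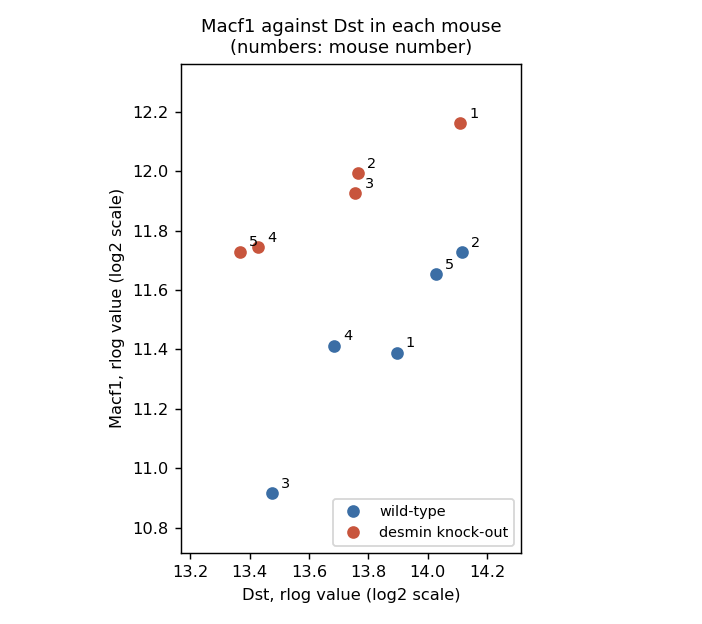
Rlog value of Macf1 against that of Dst in each mouse (both on a log2 scale), with knock-out mice in red, wild-type mice in blue and the mouse number beside each point. The knock-out mice lie above the wild-type mice, with Macf1 minus Dst higher by 0.65 on average.

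Dsp (ENSMUSG00000054889, chromosome 13, 38151294 to 38198577, plus strand) encodes desmoplakin, the plakin of desmosomes, and was close to the floor of the table. Its values were 1.01, 1.04, 0.96, 0.81 and 0.91 in the knock-out mice and 0.74, 0.75, 0.76, 0.76 and 0.76 in the wild-type mice. The wild-type values were nearly identical, and all knock-out values lay above them. The difference of 0.19 was not tested under the expression limit. In the fit without that limit over 28153 genes, its SE was 0.05 and its adjusted p was 0.0373 (limma), where 5.55% of genes passed and 4.51% had all knock-out values above all wild-type values. The wild-type SD of Dsp was only 0.0088, and its wild-type values rose in the same mouse order as those of Dsg2, Epcam and Krt14. Those 3 genes were near the floor too. The lack of overlap and the adjusted p of Dsp thus set the knock-out values against a nearly constant floor. How many reads stand behind such low values is unknown.

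The remaining plakins are known mainly from epithelia. Ppl (periplakin) had means of 6.33 ± 0.17 and 6.61 ± 0.34 (SD, n = 5 each), a difference of -0.28 with an adjusted p of 0.275 (limma). Eppk1 (epiplakin) lay under the limit, with values of 3.43, 3.50, 3.85, 3.35 and 3.43 in the knock-out mice and 2.90, 2.95, 2.88, 2.80 and 2.90 in the wild-type mice. All knock-out values of Eppk1 were above all wild-type values, by 0.62 on average, with an adjusted p of 0.0068 in the fit without the limit (limma). Eppk1 lies next to Plec on chromosome 15, between 76101481 and 76120195, and only 1 stretch of 50 bases was common to both genes' transcripts. Evpl (envoplakin), with means of 2.27 and 2.02, had an adjusted p of 0.172 in that fit (limma). Of the 7 plakins, 4 were tested, of which 1 was higher and 0 lower (1 of 4, against 13.7% of all tested genes). Of 5 epithelial markers, 4 (Krt5, Krt14, Epcam and Cdh1) were under the expression limit too, and the summed level of the 5 markers on the linear scale was 68.9 to 87.9 in the knock-out and 52.1 to 107 in the wild type.

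None of the genes of the costamere proteins passed the test: Vcl and Tln1 had slightly higher means and Tln2 a lower mean in the knock-out. Vcl (ENSMUSG00000021823, chromosome 14, 20929398 to 21033676, plus strand), which binds talin and actin, had values of 12.44, 12.30, 12.40, 12.31 and 12.47 in the knock-out mice and 12.37, 12.59, 12.02, 12.34 and 11.86 in the wild-type mice. The knock-out values lay inside the wider wild-type range. The means of 12.39 ± 0.08 and 12.24 ± 0.29 (SD, n = 5 each) differed by 0.15 (95% interval -0.12 to 0.42), with an adjusted p of 0.478 (limma). The difference was 0.09 without wild-type mouse 3, 0.05 without wild-type mouse 5 and 0.24 without wild-type mouse 2. Of the 50-base stretches in the exons of Vcl, 25.1% also occur in Ap3m1, a gene on the opposite strand, and the strand setting of the read counting is not given in the sources used here. Ap3m1 itself differed by -0.03, with an adjusted p of 0.885 (limma).

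Tln1 (ENSMUSG00000028465, chromosome 4, 43531519 to 43562691, minus strand) encodes talin-1, which is found in most cell types. Its values were 12.01, 11.91, 11.71, 11.71 and 11.73 in the knock-out mice and 11.54, 11.71, 11.99, 11.64 and 11.41 in the wild-type mice. Apart from wild-type mouse 3, the wild-type values lay close to or below the lowest knock-out value. The means of 11.82 ± 0.14 and 11.66 ± 0.22 (SD, n = 5 each) differed by 0.16 (95% interval -0.09 to 0.40), with an adjusted p of 0.392 (limma). The difference was 0.24 without wild-type mouse 3 and 0.10 without wild-type mouse 5.

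Tln2 (ENSMUSG00000052698, chromosome 9, 67217087 to 67559703, minus strand) encodes talin-2, the main talin of mature striated muscle. Its values were 11.94, 11.78, 12.00, 11.63 and 11.54 in the knock-out mice and 11.76, 11.87, 12.70, 11.86 and 11.93 in the wild-type mice. Wild-type mouse 3 was far above all other mice, which overlapped. The means of 11.78 ± 0.19 and 12.02 ± 0.38 (SD, n = 5 each) differed by -0.25 (95% interval -0.60 to 0.11), with an adjusted p of 0.358 (limma), and without wild-type mouse 3 the difference was -0.08.

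The balance of both talin transcripts was examined within each mouse. Tln2 minus Tln1 was -0.07, -0.14, 0.28, -0.08 and -0.19 in the knock-out mice and 0.22, 0.17, 0.71, 0.22 and 0.52 in the wild-type mice. Apart from knock-out mouse 3, Tln2 was below Tln1 in the knock-out, and it was above Tln1 in every wild-type mouse, on a scale not corrected for transcript length. The means of -0.04 ± 0.19 and 0.37 ± 0.24 (SD, n = 5 each) differed by -0.41 (exact permutation p = 0.0317), but this missed the threshold after adjustment over the 9 pairs (0.0951). With a mouse left out, the adjusted p of the exact permutation test was 0.143 to 0.19 in 9 of 10 cases (difference -0.32 without wild-type mouse 3), and 0.0476 without knock-out mouse 3, the mouse that lay apart from its group. Vcl minus Tln1 differed by -0.01 between the genotypes (exact permutation p = 0.952), and by -0.15 without wild-type mouse 3.

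Among the genes of junctional proteins, neither Jup nor Cdh2 passed the test. Jup (ENSMUSG00000001552, chromosome 11, 100368958 to 100397763, minus strand) encodes plakoglobin, which serves in desmosomes and in cadherin junctions. Its values were 11.01, 11.30, 11.11, 11.11 and 11.11 in the knock-out mice and 10.83, 10.88, 11.22, 11.05 and 11.04 in the wild-type mice. The ranges overlapped, and the SE of 0.0945 was the smallest of the 9 tested genes. The means of 11.13 ± 0.10 and 11.01 ± 0.15 (SD, n = 5 each) differed by 0.12 (95% interval -0.08 to 0.33), with an adjusted p of 0.435 (limma). They differed by 0.17 without wild-type mouse 3, by 0.08 without knock-out mouse 2 or wild-type mouse 1, and with sample weights by 0.21 with an adjusted p of 0.0171 (limma). Set against its relative Ctnnb1 (beta-catenin) in the same mouse, Jup differed by 0.16 between the genotypes (exact permutation p = 0.333, adjusted 0.5), and by 0.24 without wild-type mouse 3. Dsp minus Jup differed by 0.07 (exact permutation p = 0.429, adjusted 0.552), and by 0.02 without wild-type mouse 3. In the wild type Dsp spanned only 0.02 and Jup 0.38, so that this pair there mostly follows Jup.

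Cdh2 (ENSMUSG00000024304, chromosome 18) encodes N-cadherin, a cadherin of muscle precursors and of the heart. Its values of 3.78, 3.85, 3.70, 3.43 and 3.69 in the knock-out mice and 3.46, 3.44, 3.32, 3.26 and 3.77 in the wild-type mice put it just above the expression limit. Wild-type mouse 5 lay among the knock-out mice and knock-out mouse 4 among the wild-type mice. The means of 3.69 ± 0.16 and 3.45 ± 0.20 (SD, n = 5 each) differed by 0.24 (95% interval -0.03 to 0.51), with an adjusted p of 0.240 (limma), and by 0.21 without wild-type mouse 3. Set against Cdh15, the M-cadherin of satellite cells, Cdh2 differed by 0.38 between the genotypes (exact permutation p = 0.262, adjusted 0.5). This difference was 0.17 without wild-type mouse 3 and 0.57 without wild-type mouse 5.

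Mtm1 (ENSMUSG00000031337, chromosome X, 71210767 to 71315691, plus strand) was the gene with the widest wild-type spread. Its values were 9.27, 9.35, 9.41, 9.49 and 9.61 in the knock-out mice and 9.76, 9.53, 8.50, 8.78 and 9.51 in the wild-type mice. The knock-out mice were close together, while wild-type mice 3 and 4 lay well below the others. The means of 9.43 ± 0.13 and 9.22 ± 0.54 (SD, n = 5 each) differed by 0.21 (95% interval -0.24 to 0.65), with an adjusted p of 0.550 (limma). The difference was 0.03 without wild-type mouse 3 and 0.10 without wild-type mouse 4, so that its size rests on these mice. Set against Mtmr2, a related phosphatase of the same family, Mtm1 differed by 0.26 (exact permutation p = 0.325, adjusted 0.5), and by 0.11 without wild-type mouse 3.

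**Figure D4:**
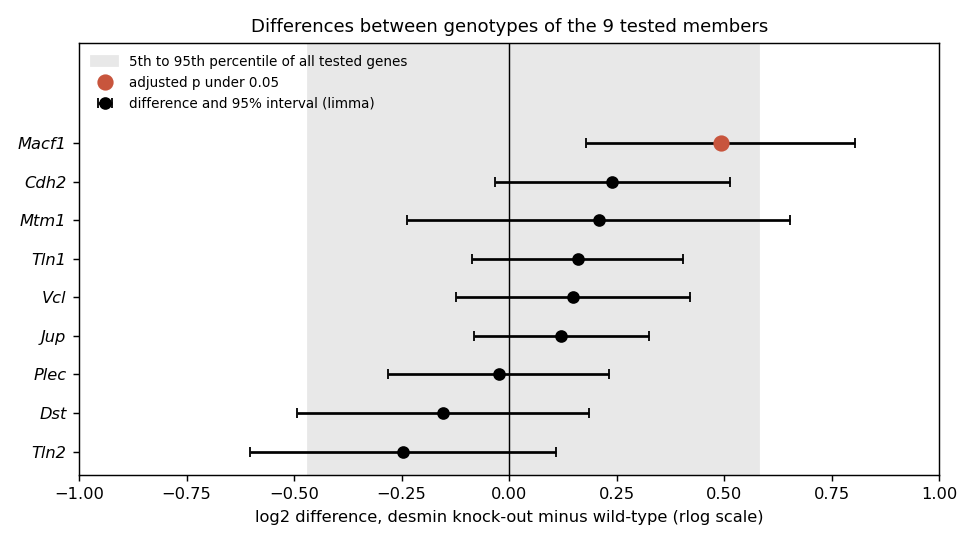
Difference between genotypes (knock-out minus wild-type, log2 rlog scale) of the 9 tested genes with 95% intervals from limma, over a grey band that spans the 5th to 95th percentile of all tested genes. Macf1, in red, is the gene with an adjusted p under 0.05, and the intervals of the other 8 genes cross 0.

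Levels of different genes can be compared only per length, and here each rlog value was reduced by the log2 of the gene's exonic length in kb. On this scale the wild-type levels were, from high to low, 9.95 ± 0.22 for Plec, 9.20 ± 0.29 for Vcl, 8.48 ± 0.26 for Dst, 8.36 ± 0.22 for Tln1 and 8.32 ± 0.15 for Jup (SD, n = 5 each). Then followed Tln2 with 7.83 ± 0.38, Macf1 with 6.45 ± 0.32, Mtm1 with 5.42 ± 0.54, Cdh2 with 0.44 ± 0.20 and Dsp with -2.52 (SD, n = 5 each). Plectin was thus the most abundant anchor transcript, above 90.6% of all tested genes per length, and Macf1 lay near the middle, above 51.5%. Dst, Tln1 and Jup were neighbours that did not differ beyond their spread, with gaps of 0.11 and 0.04, whereas Plec lay above Vcl by 0.75 and Tln2 above Macf1 by 1.38. In the knock-out the levels per length were 9.93 for Plec, 9.35 for Vcl, 8.52 for Tln1, 8.44 for Jup and 8.32 for Dst. Below these were Tln2 with 7.58, Macf1 with 6.94, Mtm1 with 5.62, Cdh2 with 0.68 and Dsp with -2.33. The order of the genotypes thus differed only among Dst, Tln1 and Jup, whose levels were within their spread of each other. These levels count all exons of a gene, and with the longest transcript in their place all 10 moved upwards and the order changed. Jup (9.33) then stood next after Vcl, level with Dst (9.30) and above Tln1 (8.59) by more than their spread, and Mtm1 (7.18) passed Macf1 (6.87). The order among Dst, Tln1 and Jup, and that of Mtm1 and Macf1, thus depends on the length used.

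Across mice the 9 tested genes did not vary as a single block. Of 36 pairs, 2 had a correlation above 0.8 over the 9 mice other than wild-type mouse 3, and 15 were below 0. Beside Macf1 with Dst, this was Plec with Tln1, at 0.87 (0.94 over all 10 mice). Plec and Macf1 gave 0.72 over 9 mice and -0.33 over 10, so that this value rests on whether wild-type mouse 3 is counted. In the knock-out group 4 of the 9 genes were highest in mouse 1, and 6 were lowest in mouse 4 or 5.

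The tested genes whose deviations from the genotype means were most like those of each anchor gene were ranked over the same 9 mice. For Dst these were Osmr, the oncostatin M receptor, with 0.97, and Ptk2, the focal adhesion kinase, with 0.96 (0.93 and 0.86 over all 10 mice). For Tln2 the closest gene was Sptb, the erythrocyte and muscle beta-spectrin of the membrane skeleton, with 0.99 (0.95 over 10), followed by Pcnt, a centrosome protein, with 0.97 (0.06 over 10). For Mtm1 they were Arl5a, a small GTPase, and the lysosomal membrane protein Lamp2, with 0.996 and 0.99 (0.95 and 0.75 over 10). All of these are descriptions over 9 points that share their libraries, picked from 14289 genes.

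For Jup the closest genes were Fbxo7 and Tsc22d4, with 0.96 and 0.95 (0.97 each over 10 mice), and for Vcl they were Dhrs1 and Trp53bp1, with 0.97 and 0.965 (0.28 and 0.97 over 10). Wild-type mouse 3 ended the likeness for several others. Plec was closest to Bms1 and Tmc4 with 0.98 and 0.96, but over 10 mice the values were -0.06 and -0.30. Macf1 was closest to Heatr6 and Katnal1 with 0.97 and 0.96 (0.74 and 0.19 over 10). Tln1 was closest to Gm16008 and Vwa3a with 0.98 and 0.96 (0.53 and 0.20 over 10), and Cdh2 to Rbm12b1 and Ankrd46 with 0.97 and 0.95 (0.61 and 0.76 over 10). No gene in these pairs had an adjusted p under 0.05 for the genotype, other than Macf1 itself.

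Of 28 integrin adhesion and costamere partners, all were tested, 3 were higher and 3 lower in the knock-out (21.4%, against 13.7% of all tested genes), and their median difference was -0.06. Vasp, an actin regulator of focal adhesions, was 9.01, 9.19, 9.09, 9.29 and 9.15 in the knock-out mice and 9.66, 9.57, 9.94, 10.40 and 9.93 in the wild-type mice. It fell by 0.75 without overlap (adjusted p 0.00249, limma). Both PINCH adaptors of the integrin-linked kinase passed the test in opposite directions: Lims1 rose by 0.64 (adjusted p 0.00548, limma) and Lims2 was lower, with a difference of -0.60 (adjusted p 0.00740, limma). Lims1 had no overlap between the genotypes, and Lims2 overlapped through knock-out mouse 1. The other 3 were Itga5 and Rap1a, which were higher by 0.50 and 0.46, and Bcar1, with a difference of -0.30. With a mouse left out, Vasp, Lims1, Lims2 and Itga5 passed in all 10 fits, Rap1a in 4 and Bcar1 in 2.

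Of 18 cadherin, catenin and desmosome partners, 15 were tested, 3 were higher and 2 lower (33.3%, against 13.7% of all tested genes), and their median difference was 0.02. The catenin relative Arvcf rose by 0.40 (9.43 to 9.64 against 8.94 to 9.21) with an adjusted p of 0.00703 (limma). Ctnna3, the alpha-T-catenin that joins cadherin junctions to actin in heart muscle, rose by 0.51 (8.96 to 9.28 against 8.21 to 8.78) with an adjusted p of 0.0113 (limma). Cdh4, or R-cadherin, fell by 1.26 (5.65 to 6.40 against 6.61 to 8.72), the largest change of this list, with an adjusted p of 0.0178 (limma). In these 3 genes the genotypes did not overlap, which held for 14.4% of all tested genes. Pkp4 (-0.43) and Cdh13 (0.51) also passed, whereas Ctnnb1 (-0.04, adjusted p 0.837, limma) and Cdh15 (-0.14, adjusted p 0.644, limma) did not. With a mouse left out, Arvcf and Ctnna3 passed in all 10 fits and Cdh4 in 9 (adjusted p 0.0523 without knock-out mouse 5, limma), but Pkp4 in 4 and Cdh13 in 1, that without wild-type mouse 3.

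None of the 17 members of the myotubularin family and its membrane partners passed the test with limma, against 13.7% of all tested genes. Their median difference was -0.06. An unadjusted p under 0.05 (limma) was found for 3 of them, and the share of all tested genes at that level was not counted. Closest to the threshold were Mtmr14 (-0.47, adjusted p 0.0521, limma), a phosphatase of striated muscle, and Mtmr3 (-0.25, adjusted p 0.0567, limma). Fig4, a phosphatase of endosomal phosphoinositides, differed by -0.34 with an adjusted p of 0.154 (limma), and Mtmr2 by -0.06. Without wild-type mouse 3, Mtmr14 differed by -0.31 and Mtmr3 by -0.21, with adjusted p of 0.00874 and 0.032 (limma), and Fig4 by -0.18 (0.127). Of 9 filament partners of desmin, 8 were tested, 2 were higher and 0 lower (2 of 8, against 13.7% of all tested genes), with a median difference of 0.28. Krt18, a keratin of simple epithelia, was 8.49, 8.27, 6.97, 7.58 and 7.13 in the knock-out mice and 5.86, 5.88, 6.74, 5.62 and 5.77 in the wild-type mice. It rose by 1.71 without overlap (adjusted p 0.00138, limma) and passed with any mouse left out. Nes, the nestin of immature and junctional muscle filaments, rose by 0.42 (adjusted p 0.0291, limma; passing in 4 of 10 fits with a mouse left out), and Sync, or syncoilin, differed by 0.27 (adjusted p 0.0948, limma).

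**Figure D5:**
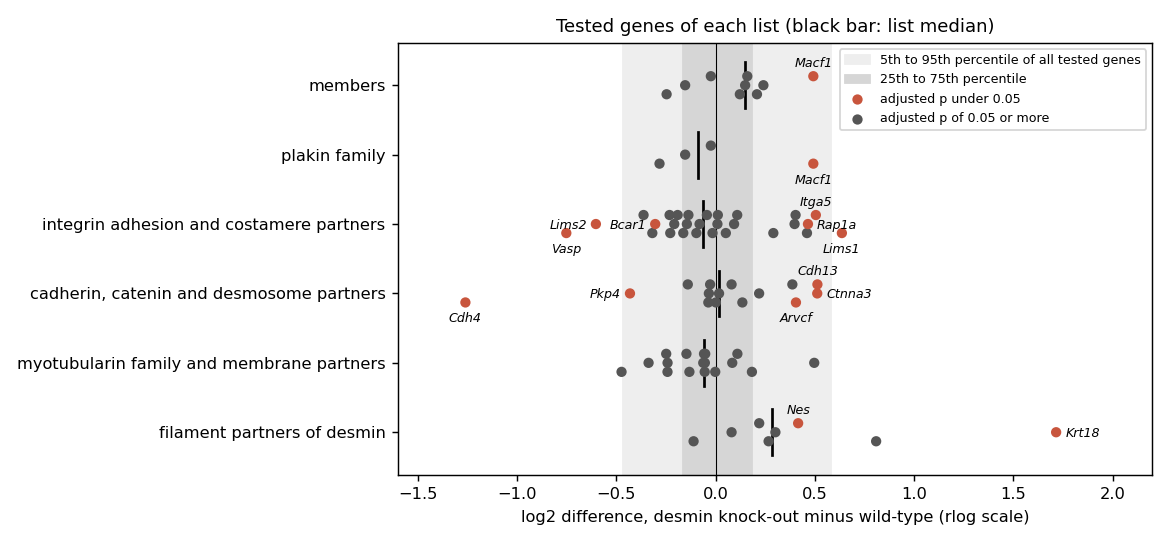
Difference between genotypes (knock-out minus wild-type, log2 rlog scale) of each tested gene in the 10 anchor genes and 5 lists of partners, with genes of an adjusted p under 0.05 (limma) in red and named and the list median as a black bar. The anchor genes lie between -0.25 (Tln2) and 0.49 (Macf1). Several partners, among them Vasp, Lims1 and Lims2, lie outside the light grey band of the 5th to 95th percentile of all tested genes. Cdh4 at -1.26 and Krt18 at 1.71 lie farthest out.

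Markers of other cell types moved with the genotype beside these genes, and their counts stand against 7.70% of all tested genes called higher and 5.99% called lower. Marker levels were summed on the linear scale. For the 5 markers of satellite cells and regenerating fibers (3 higher, 1 lower) the sum was 1550 to 2320 in the knock-out. In the wild type it was 1000 to 1290. Among these markers Myog, Myh3 and Mymk were higher, by 1.23, 2.25 and 1.93. Myod1 was lower, with a difference of -0.47, and Pax7 hardly differed (0.01, adjusted p 0.956, limma). This list thus did not move as 1 group. The 3 tendon markers (2 higher) were at 669 to 988 in the knock-out and 335 to 588 in the wild type. The 8 endothelial markers (5 lower) were at 4350 to 5800 and 6090 to 7660, and the 3 erythroid markers (2 lower) at 2180 to 3170 and 3220 to 8030. The 7 muscle fiber markers (1 higher, 1 lower) were at 3130000 to 3640000 and 3660000 to 7110000, which nearly touched. They did not move as 1 group: Myh2 was higher by 0.77 and Myh4 differed by -0.71, with 2 means higher and 5 lower. Wild-type mouse 3 had the highest values of Acta1, Ckm and Myh4, the most abundant of these markers. In none of these 5 lists did the genotypes overlap, and none of their markers lay under the expression limit.

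The other lists overlapped between the genotypes. The 6 fibroblast markers (3 higher) were at 12700 to 19400 in the knock-out and 9180 to 18500 in the wild type, and the 4 lymphatic markers (1 higher) at 333 to 395 and 302 to 469. No gene passed the test with limma among the markers of Schwann cells (971 to 1330 against 826 to 1460), macrophages (872 to 1270 against 969 to 1220), smooth muscle (3530 to 5590 against 3920 to 8500) and adipocytes (972 to 2400 against 968 to 2260). The part of cell composition in the differences of Macf1, Dsp and the listed partners was not tested.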

How the data were processed

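Gene expression was measured by RNA-seq in the gastrocnemius of 5 knock-out and 5 wild-type mice. Per the labels, libraries were made from total RNA with a stranded mRNA kit, and the submitters' processing notes name cutadapt 2.5, STAR 2.5.4a, Subread 1.6.1, featureCounts, DESeq2 and GRCm38. The authors deposited log2 values, namely rlog values of DESeq2, which are scaled for library size and shrunken per gene. No counts were used here, so depth and counting error are unknown, and low genes are the least certain. Symbols (54165 of 54232 genes) and positions came from GENCODE M21.

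Testing was limited to genes whose mean value reached log2(10). The test was that of limma 3.58.1 under R 4.3.3 (eBayes with a variance trend, two-sided, Benjamini-Hochberg over 14289 genes). Single values were compared by two-sided exact permutation tests with scipy 1.17.1 (252 splits), adjusted over 9 pairs of genes. Nothing in the labels says more about the origin of each column, and p-values measure the spread between these columns.

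The genes, the lists, the pairs and the use of 9 mice for correlations were chosen with earlier results of these data known. The genes named were Des, the 10 anchor genes, all tested plakins, the 3 genes of lowest adjusted p in each list, both genes of each pair and the 2 genes most like each anchor gene. Eppk1, Evpl, Ap3m1 and the remaining changed genes of the integrin and cadherin lists were added after their values were seen. Alternatives were no expression limit or one of log2(50), sample weights, quantile normalization, centring on the median, the replicate number as a block, 1 prior variance for all genes, removal of GC and length trends, a Y-linked covariate, each mouse left out, and the longest transcript as length. The scripts were tested on simulated data.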

Additional observations from a re-analysis of the deposited data

Results flagged for a closer look

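Among 72 groups of 5 mice (27 genes and 9 pairs), 8 held a mouse whose gap to the nearest other mouse took up more of the group's range than Dixon's limit of 0.71 allows. Chance gives this in about 1 of 20 groups, or 3.6 groups here, and 5 of the 8 concern wild-type mouse 3. This mouse was at 17.74 for Des, while the other wild-type mice were between 16.10 and 16.55. It was at 12.70 for Tln2 (others 11.76 to 11.93), at 10.57 for Mtmr14 (others 9.66 to 9.83), at 9.75 for Fig4 (others 8.89 to 9.01) and at 6.74 for Krt18 (others 5.62 to 5.88). Knock-out mouse 5 was at 6.02 for Ppl, below 6.35 to 6.45 in the other knock-out mice. Wild-type mouse 4 was at 8.21 for Ctnna3, below 8.61 to 8.78 in the others. Knock-out mouse 3 had a difference of 0.28 for Tln2 minus Tln1, while the other knock-out mice were between -0.19 and -0.07.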

How the results depend on the processing

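Under 19 alternatives the difference of Macf1 stayed positive (0.25 to 0.57) and its adjusted p (limma) ran from 0.0136 to 0.101, under 0.05 in 10 of them. For Macf1 minus Dst and Plec minus Macf1, GC and length removal gave adjusted p of 0.0635 and 0.0889 (exact permutation test). An exact permutation test by sign flips within the 5 pairs cannot go below p = 0.0625, an adjusted 0.188. The number of all genes changed was 1956, with sample weights 4220 and with mice left out 1400 to 2496. The split of 1100 higher and 856 lower genes became nearly even with median centring (942 and 979) and sample weights (2093 and 2127). Of the anchor genes, sample weights called 2, the Y-linked covariate 0 and fits with a mouse left out 0 to 1. Plakins called were 2 with no limit, 0 with the Y-linked covariate and 0 to 1 with a mouse left out. Integrin partners were 14 with sample weights and 4 to 8 with a mouse left out. Cadherin partners were 2 with no limit and 2 to 5 with a mouse left out (2 without knock-out mouse 5, 3 without knock-out mouse 1, 2 or 4 or wild-type mouse 2 or 5). Myotubularin partners were 1 with median centring, quantile normalization or the replicate block, 5 with sample weights, 2 with GC and length trends removed and 0 to 2 with a mouse left out (1 without wild-type mouse 1 or 4, 2 without wild-type mouse 3). Filament partners were 1 with no limit or median centring, 5 with sample weights and 1 to 3 with a mouse left out (1 without knock-out mouse 1 or 2 or wild-type mouse 1, 2 or 5). Pairs passing were 0 with GC and length trends removed, 0 when paired and 0 to 3 with a mouse left out. Signs turned for Plec with quantile normalization (0.13), GC and length removal (0.041) and the Y-linked covariate (0.092), and with mice left out it ran from -0.069 to 0.067. They also turned for Mtm1 with sample weights (-0.062) and the Y-linked covariate (-0.10). Vcl minus Tln1 ran from -0.15 to 0.064 with mice left out. Where these changes are not due to fewer mice or fewer genes, the cause was not tested. Per length of the longest transcript, wild-type levels were 10.18 for Plec, 9.84 for Vcl, 9.33 for Jup, 9.30 for Dst, 8.59 for Tln1, 8.42 for Tln2, 7.18 for Mtm1, 6.87 for Macf1, 1.17 for Cdh2 and -2.51 for Dsp. The labels do not say that a replicate number pairs mice, and deviations of same-numbered mice correlated between -0.219 and 0.0673. With the replicate block, 1579 genes changed (913 higher, 666 lower), and Macf1 had an adjusted p of 0.0455 (limma). Unknown depth limits Dsp, Eppk1 and Cdh2 most.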
